A study of Mus musculus with 24 samples.

Results

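Eomes, Mixl1, Evx1, Gsc, Lhx1, Mesp1 and Mesp2 encode transcription factors of the primitive streak, and their RNA levels were followed through 12 groups of mouse samples on Affymetrix arrays. Members were taken by symbol: a probe set was used where the array annotation listed it for 1 of these symbols alone. This gave 7 genes of 18194 and 9 probe sets of 45101, with a pair of probe sets each for Eomes and Lhx1. The 24 arrays formed 12 groups of 2, and all cells and embryos were of the C57BL/6 strain. Unamplified arrays, labelled by the standard protocol, covered embryonic stem cells (ESCs) kept in 2i+LIF without feeder cells, and epiblast-like cells (EpiLCs) at day 1, day 2 and day 3 of their induction from ESCs. They also covered epiblast stem cells (EpiSCs) derived from epiblast at embryonic day 5.75, and germ cell-like cells induced from day 2 EpiLCs, called PGCLCs (primordial germ cell-like cells). Amplified arrays, made from 5 ng of total RNA (500 cells) after 22 cycles of PCR, covered ESCs, day 2 EpiLCs, EpiSCs, PGCLCs, epiblast of embryonic days 5.5 to 6, and primordial germ cells (PGCs) of embryonic day 9.5. The labels call the arrays of a group biological replicates without saying whether cultures or litters were separate, so a p-value here reflects only how far these particular samples spread.

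The primitive streak forms in the posterior epiblast at gastrulation, when Nodal, WNT3 and BMP4 signals turn on transcription factors that direct epiblast cells into mesoderm and definitive endoderm. Eomes is a T-box factor needed for mesoderm and endoderm formation in the mouse. Mixl1, Evx1, Gsc and Lhx1 are homeobox factors of the streak, Evx1 of its posterior and Gsc and Lhx1 of its anterior end. Mesp1 and Mesp2 are related basic helix-loop-helix factors, Mesp1 known for early cardiac mesoderm and Mesp2 for the segmentation of somites. EpiLCs, EpiSCs and the epiblast of the egg cylinder are pluripotent states just before or around the onset of this programme, and primordial germ cells are set aside from posterior epiblast beside the streak.

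Sequences around the annotated starts of 6 members were taken from a RefSeq promoter table of the mouse build GRCm38.p6; Mixl1 was not in it. Each window runs from 250 bases before the start to 50 after it. They are shown for Mesp1 and Mesp2, neighbours on chromosome 7, and for Eomes and Lhx1, the members with a called difference between the germ cell step in culture and in the embryo. Mesp1 and Mesp2 were called in opposite directions in EpiSCs against day 2 EpiLCs on unamplified arrays only. The Mesp2 call depended on how low values were treated, and neither gene was called on amplified arrays (log2 differences 0.77 and -0.10). The windows are chr7:79793541-79793840 on the minus strand for Mesp1 and chr7:79810477-79810776 on the plus strand for Mesp2. Those of Eomes and Lhx1 are chr9:118477939-118478238 on the plus strand and chr11:84525485-84525784 on the minus strand. Capitals mark matches to any of the motifs described next.
Mesp1: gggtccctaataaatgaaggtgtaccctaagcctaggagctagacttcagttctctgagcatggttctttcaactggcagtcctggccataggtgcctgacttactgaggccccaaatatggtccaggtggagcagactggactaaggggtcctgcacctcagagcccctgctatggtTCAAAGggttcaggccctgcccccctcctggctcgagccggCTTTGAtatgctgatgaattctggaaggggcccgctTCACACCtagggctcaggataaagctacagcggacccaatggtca
Mesp2: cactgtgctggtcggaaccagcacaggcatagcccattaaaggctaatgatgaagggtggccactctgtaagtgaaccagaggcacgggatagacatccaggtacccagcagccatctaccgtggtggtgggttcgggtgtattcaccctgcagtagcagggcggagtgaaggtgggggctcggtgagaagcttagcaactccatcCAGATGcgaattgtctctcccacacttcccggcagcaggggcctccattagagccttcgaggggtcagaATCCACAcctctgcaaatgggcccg
Eomes: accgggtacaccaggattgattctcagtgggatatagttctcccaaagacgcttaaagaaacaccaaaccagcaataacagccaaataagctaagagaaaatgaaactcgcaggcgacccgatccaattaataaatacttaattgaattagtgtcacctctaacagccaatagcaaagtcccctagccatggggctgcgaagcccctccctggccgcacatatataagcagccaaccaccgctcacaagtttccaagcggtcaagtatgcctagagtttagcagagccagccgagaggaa
Lhx1: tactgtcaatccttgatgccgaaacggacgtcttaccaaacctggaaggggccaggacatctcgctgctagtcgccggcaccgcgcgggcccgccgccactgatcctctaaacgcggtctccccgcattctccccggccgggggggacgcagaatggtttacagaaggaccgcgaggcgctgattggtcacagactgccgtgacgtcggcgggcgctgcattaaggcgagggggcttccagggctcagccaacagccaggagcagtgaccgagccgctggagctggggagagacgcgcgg

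Both strands were searched for 5 short motifs. Mesp1 held the TCF/LEF letters CTTTGA at a pair of places, starting 72 bases (reverse strand) and 31 bases upstream, and the T-box letters GGTGTGA on the reverse strand from base 6 after the start. Mesp2 held the E-box letters CATCTG on the reverse strand 44 bases upstream and the FOXH1 letters ATCCACA from base 26 after the start. Of 32851 windows of this length in the table, 16% held the TCF/LEF letters, 3.98% the T-box letters, 17.2% the E-box letters and 3.38% the FOXH1 letters. The SMAD letters CAGACA, present in 21% of windows, were found in 1 member, Evx1, 112 bases upstream on the reverse strand, and Gsc held the E-box letters 210 bases upstream. No matches overlap one another, and none of the 5 was found in the Eomes and Lhx1 windows. A match is a description of the letters and not a binding site.

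Intensities as deposited are linear and run from 1 to 17519. The median of an unamplified array lay from 41.1 to 49.2 and that of an amplified array from 36.2 to 40. With 2 arrays a group, precision is limited by their number. A gene was tested where at least 2 arrays of its set of 12 exceeded a filter level at the set's 40th percentile (28.1 unamplified, 24 amplified). A gene was called, and is said to rise or fall, where limma gave a Benjamini-Hochberg adjusted p under 0.05 over all tested genes and a log2 difference of at least 1. All 7 members were tested on amplified arrays and 6 on unamplified arrays, where Mixl1 exceeded the level on 1 array. The replicates of the amplified EpiSCs correlated less well (r 0.911) than those of the other groups, which lay between 0.957 and 0.991. Labels were checked with markers: Prdm14, a germ cell regulator, read 1590 and 1770 on the unamplified PGCLC arrays, and Fgf5, a postimplantation epiblast marker, read 857 and 900 in day 2 EpiLCs and 1 in both ESC arrays. The 7 named germ cell markers summed to 15300 and 15700 in unamplified PGCLCs, 3630 and 3500 in unamplified ESCs, and 16500 and 20700 in PGCs. Of 6 postimplantation epiblast markers, 4 were called lower and 1 higher in unamplified EpiSCs than in day 2 EpiLCs, beside 18.9% of all genes.

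Eomes was the member with the broadest signal: it exceeded the filter level on all 24 arrays. On unamplified arrays its intensity was 313 and 273 in ESCs, 127 and 132 in day 1 EpiLCs, 71.6 and 72.2 in day 2 EpiLCs, and 61.8 and 61.9 in day 3 EpiLCs. Each of these 4 groups lay below the one before it without overlap, and replicates were close together. EpiSCs read 121 and 138, and PGCLCs read 95.3 and 31.1, a spread that brackets day 2 EpiLCs. On amplified arrays Eomes read 164 and 154 in ESCs, 111 and 102 in day 2 EpiLCs, 483 and 189 in EpiSCs, and 588 and 1010 in the epiblast. PGCLCs (39.7 and 41.8) and PGCs (32.2 and 24.5) lay lowest, without overlap with the other amplified groups, and PGCs came close to the filter level of 24.

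The second Eomes probe set showed the same course as the one that represents the gene, which was taken for its higher mean. The log2 values of the pair correlated with r = 0.97 over the 12 arrays of each set, which share the same RNA samples. The second probe set read lower in germ cells: 20.5 and 28 in amplified PGCLCs and 6.04 and 8.96 in PGCs, where no array exceeded the filter level. The Lhx1 pair correlated less: r was 0.89 on unamplified and 0.53 on amplified arrays. The second Lhx1 probe set read 50.8 and 40.5 in unamplified EpiSCs and 66.7 and 37 in PGCLCs, but 5.19 to 22.3 on the 12 amplified arrays, all below the filter level. All other Lhx1 values come from the brighter probe set.

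**Figure D1:**
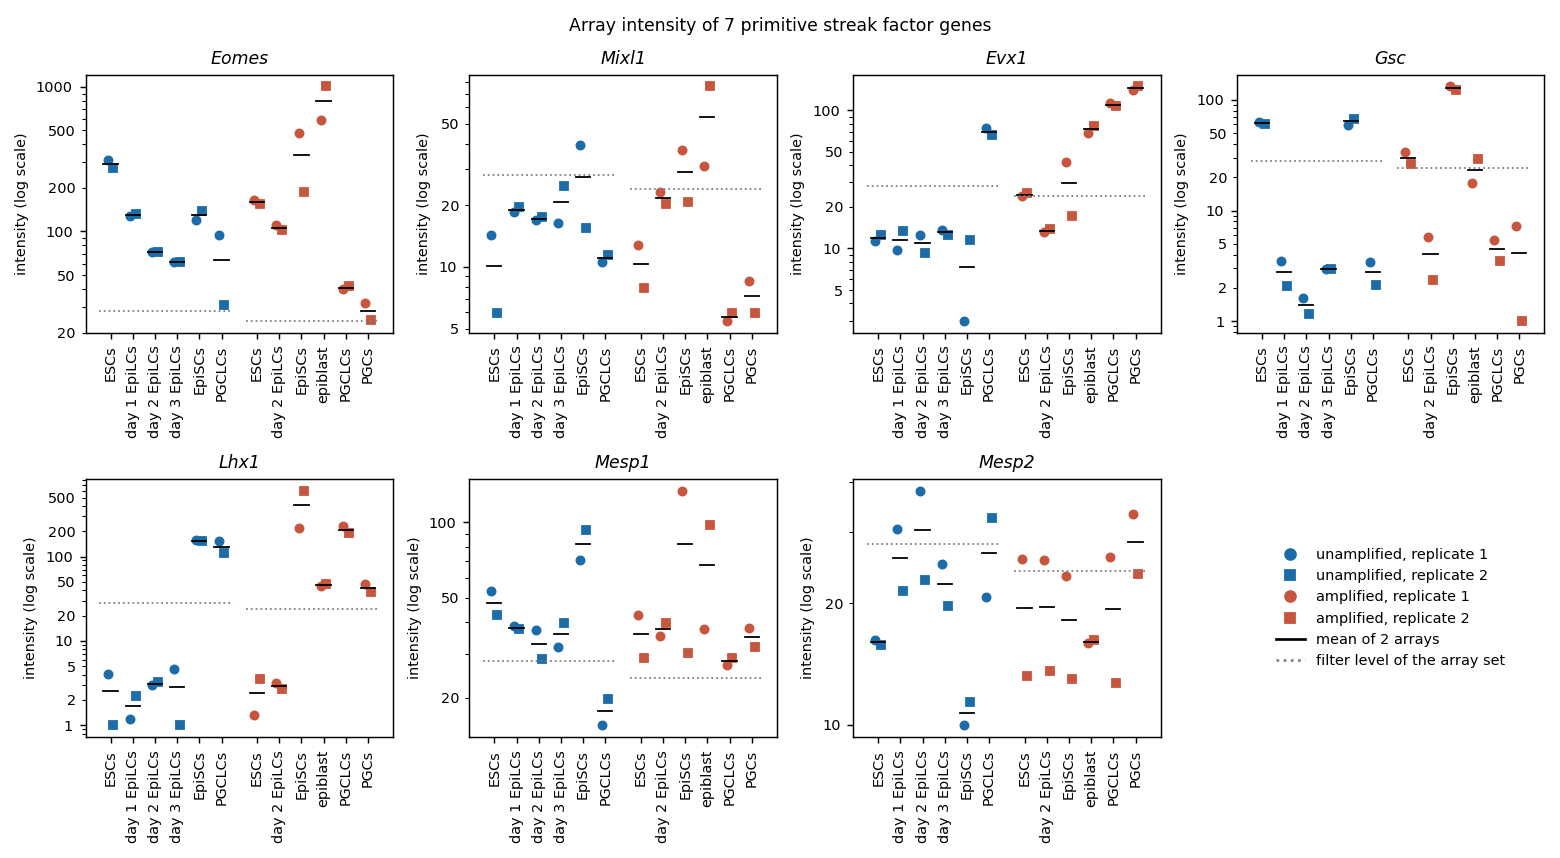
Intensity (log scale) of each member by group, 1 panel per gene, with unamplified arrays in blue and amplified arrays in red, replicate 1 as circles and replicate 2 as squares; bars are the mean of 2 arrays and dotted lines the filter level of each set. Eomes is highest in unamplified ESCs and amplified epiblast, Evx1 in PGCLCs and PGCs, Gsc in EpiSCs and ESCs, and Lhx1 in EpiSCs and PGCLCs.

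**Figure D2:**
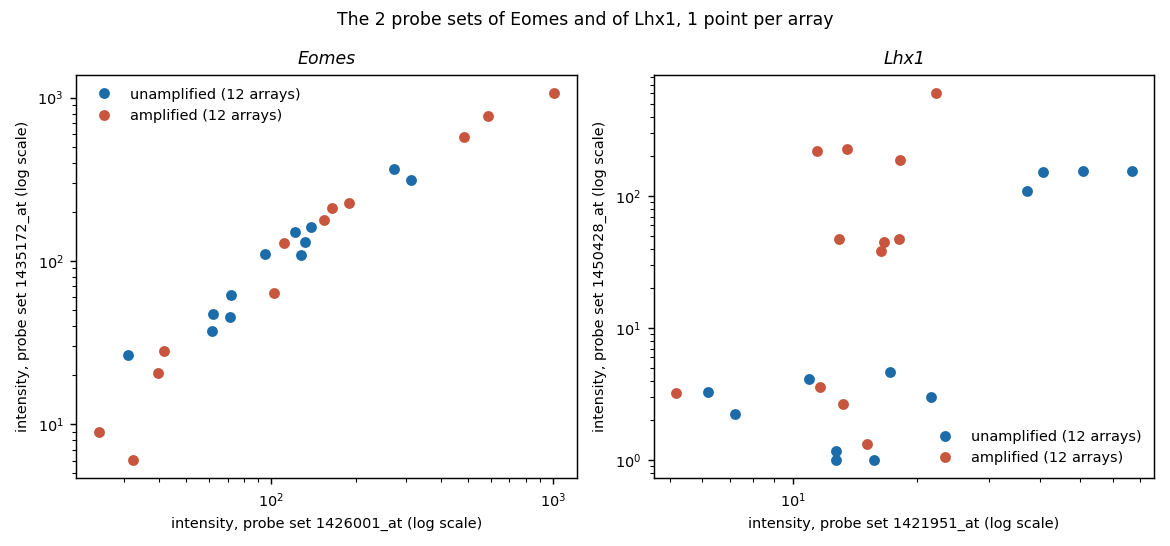
Intensities of the 2 probe sets of Eomes (left) and of Lhx1 (right), both axes on log scales, 1 point per array. The Eomes pair runs together over all 24 arrays (r 0.97 in each set), while the Lhx1 pair separates high from low arrays only on the unamplified set.

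Mixl1, a target of Nodal signalling that marks nascent mesendoderm, stayed low almost throughout. On unamplified arrays it read 39.3 and 15.5 in EpiSCs and between 5.95 and 24.9 in the other 5 groups. On amplified arrays it read 31.2 and 76.1 in the epiblast, 37.2 and 20.8 in EpiSCs, 23.1 and 20.3 in day 2 EpiLCs, and 12.8 and 7.92 in ESCs. PGCLCs (5.44 and 5.99) and PGCs (8.54 and 5.95) read lowest, so that the epiblast was the only group with both arrays above the filter level.

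Evx1, the posterior streak factor, exceeded the filter level on both arrays of each germ cell group and of the epiblast. Among unamplified groups it exceeded the filter level only in PGCLCs, at 74.1 and 65.9, against 2.98 to 13.7 on the other 10 arrays. Amplified PGCs read 140 and 149, PGCLCs 112 and 107, and the epiblast 68.8 and 76.6. Amplified EpiSCs (42 and 17.1), ESCs (23.8 and 25) and day 2 EpiLCs (13.1 and 13.8) lay below all of these, with no overlap.

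Gsc (goosecoid), the organiser factor of the anterior streak, was present in ESCs and EpiSCs and at the bottom of the scale in EpiLCs. Unamplified ESCs read 63.1 and 60, EpiSCs 59.9 and 67.9, and the other 4 groups 1.17 to 3.47. On amplified arrays Gsc read 133 and 123 in EpiSCs, 33.6 and 26.1 in ESCs, and 17.8 and 29 in the epiblast. Day 2 EpiLCs (5.75 and 2.33), PGCLCs (5.41 and 3.5) and PGCs (7.26 and 1) lay below the filter level. Before log2 was taken, a floor of 4.2 (the 10th percentile over the table) replaced lower values, which have no order among themselves, so the size of a log2 difference from a group at the floor depends on it.

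Lhx1 (Lim1), which acts in the anterior streak and head organiser, switched between the floor and clear signal. On unamplified arrays EpiSCs read 155 and 151 and PGCLCs 154 and 109, against 1 to 4.65 on the 8 ESC and EpiLC arrays. On amplified arrays it read 219 and 605 in EpiSCs, 229 and 189 in PGCLCs, 44.5 and 47.7 in the epiblast, and 47.7 and 38.2 in PGCs. ESCs (1.32 and 3.56) and day 2 EpiLCs (3.22 and 2.67) were again at the floor, far from every other amplified group.

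Mesp1 was seen at low to moderate intensity in most groups. Unamplified EpiSCs read 71 and 93, ESCs 53.2 and 42.6, day 1 EpiLCs 38.5 and 37.5, day 2 EpiLCs 37.1 and 28.6, and day 3 EpiLCs 31.8 and 39.7. PGCLCs, at 15.5 and 19.8, were the only unamplified group below the filter level. On amplified arrays replicates differed most where Mesp1 was highest: EpiSCs read 134 and 30.2 and the epiblast 37.6 and 97.5, while the other 8 arrays read 26.9 to 42.9. Mesp2 stayed near or below the filter level, with 9.97 to 38 as its unamplified range and 12.7 to 33.2 as its amplified range. Replicate 1 of Mesp2 was the higher in 5 of 6 amplified groups.

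The first set of comparisons follows ESCs into EpiLCs. Over this transition streak factors went down or did not pass the test. Eomes and Gsc fell from ESCs to day 2 EpiLCs on unamplified arrays, Eomes by 4.06-fold (log2 difference -2.02 ± 0.37 SE, n = 2 arrays per group, adjusted p = 0.00103). Gsc fell by at least 2.19-fold (-3.87 ± 0.29, adjusted p = 1.36e-06); "at least" means that every array of the lower group was at or below the filter level, which then stands in for it. These 2 calls among 6 members stand beside 16.5% of all 14935 tested genes called in the comparison, and the median log2 difference was -0.35 for the members and 0.01 for all genes. Less RNA per cell and fewer cells carrying it cannot be told apart in such bulk samples.

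Both falls were already seen at day 1. From ESCs to day 1 EpiLCs Gsc fell by at least 2.19-fold (-3.87 ± 0.29, adjusted p = 2.15e-06) and Eomes by 2.25-fold (-1.17 ± 0.37, adjusted p = 0.0286), 2 of 6 members against 12% of all genes. The Eomes call at day 1 was lost when any 1 of the 4 arrays of these groups was left out, without the filter and without the intensity trend (adjusted p up to 0.132). No member was called between day 1 and day 2 (8.04% of all genes) or between day 2 and day 3 (4.26%), where the Eomes differences were -0.85 ± 0.37 (adjusted p = 0.112) and -0.22 ± 0.37 (adjusted p = 0.745). On amplified arrays Gsc was the 1 member of 7 called from ESCs to day 2 EpiLCs, against 8.51% of all genes. It fell by at least 1.23-fold (-2.59 ± 0.41, adjusted p = 0.0038), a call that was lost without the floor and with a floor at the 40th percentile (log2 difference -0.30). Eomes gave -0.58 ± 0.42 there (adjusted p = 0.503).

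EpiSCs, which are cultured from postimplantation epiblast, carried more RNA of several streak factors than day 2 EpiLCs. Lhx1, Gsc and Mesp1 rose on unamplified arrays while Mesp2 fell, 4 calls among 6 members beside 18.9% of all genes. Lhx1 was at least 5.45-fold higher (5.19 ± 0.29, adjusted p = 1.27e-07), Gsc at least 2.27-fold higher (3.93 ± 0.29, adjusted p = 1.15e-06) and Mesp1 2.49-fold higher (1.32 ± 0.25, adjusted p = 0.001). The median log2 difference was 1.08 for members and 0.02 for all genes. Mesp2 was lower in EpiSCs (-1.46 ± 0.34, adjusted p = 0.00407), but its fold against the filter level was at least 1.05, and the call was lost with a floor at the 40th percentile (-0.22).

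On amplified arrays Lhx1, Gsc and Eomes rose in EpiSCs over day 2 EpiLCs, 3 of 7 members beside 12.5% of all genes. Lhx1 was at least 15.1-fold higher (6.44 ± 0.41, adjusted p = 1.85e-05) and Gsc at least 5.32-fold higher (4.70 ± 0.41, adjusted p = 9.66e-05), and both calls held under all 22 alternative settings run for them. Eomes was 2.84-fold higher (1.51 ± 0.42, adjusted p = 0.0401). That Eomes call was lost under 12 of 22 settings: without the filter, with quantile normalization, with the comparison's groups alone, and without EpiSC replicate 1 (log2 difference 0.83) or any 1 ESC, day 2 EpiLC, PGCLC or PGC array. On unamplified arrays Eomes did not pass (0.85 ± 0.37, adjusted p = 0.0817), although its second probe set, fitted on its own, did (1.57 ± 0.49, adjusted p = 0.0242). Mesp1 did not pass on amplified arrays (0.77 ± 0.64, adjusted p = 0.467), where the EpiSC arrays lie on either side of those of day 2 EpiLCs.

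Fibroblast and feeder cell markers moved with the EpiSC results: all 9 named of 10 exceeded the filter level, with summed intensities of 6660 and 6780 against 404 and 423 in unamplified day 2 EpiLCs, and 3010 and 3700 against 406 and 463 on amplified arrays. Visceral endoderm markers summed to 1350 and 1420 in unamplified EpiSCs and 2490 and 1420 in amplified EpiSCs, against 640 to 662 and 741 to 856 in day 2 EpiLCs. Trophoblast markers (7 of 10 named) ranged from 360 to 1160 over the 24 arrays and early neural markers (4 of 4 named) from 187 to 1440, and the highest sums of each set were on EpiSC arrays. Trophoblast sums were 828 and 795 in EpiSCs against 399 and 380 in day 2 EpiLCs on unamplified arrays and 1160 and 704 against 396 and 646 on amplified arrays, with 2 of 6 and 2 of 5 tested called higher. Early neural sums were 1120 and 1080 against 529 and 619 on unamplified arrays, where 2 of 4 rose and 1 fell, and 1440 and 575 against 817 and 419 on amplified arrays, where 1 rose and 1 fell. These trophoblast and neural counts stand beside 18.9% of all genes called on unamplified and 12.5% on amplified arrays. The part of all these markers in the member differences was not tested.

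**Figure D3:**
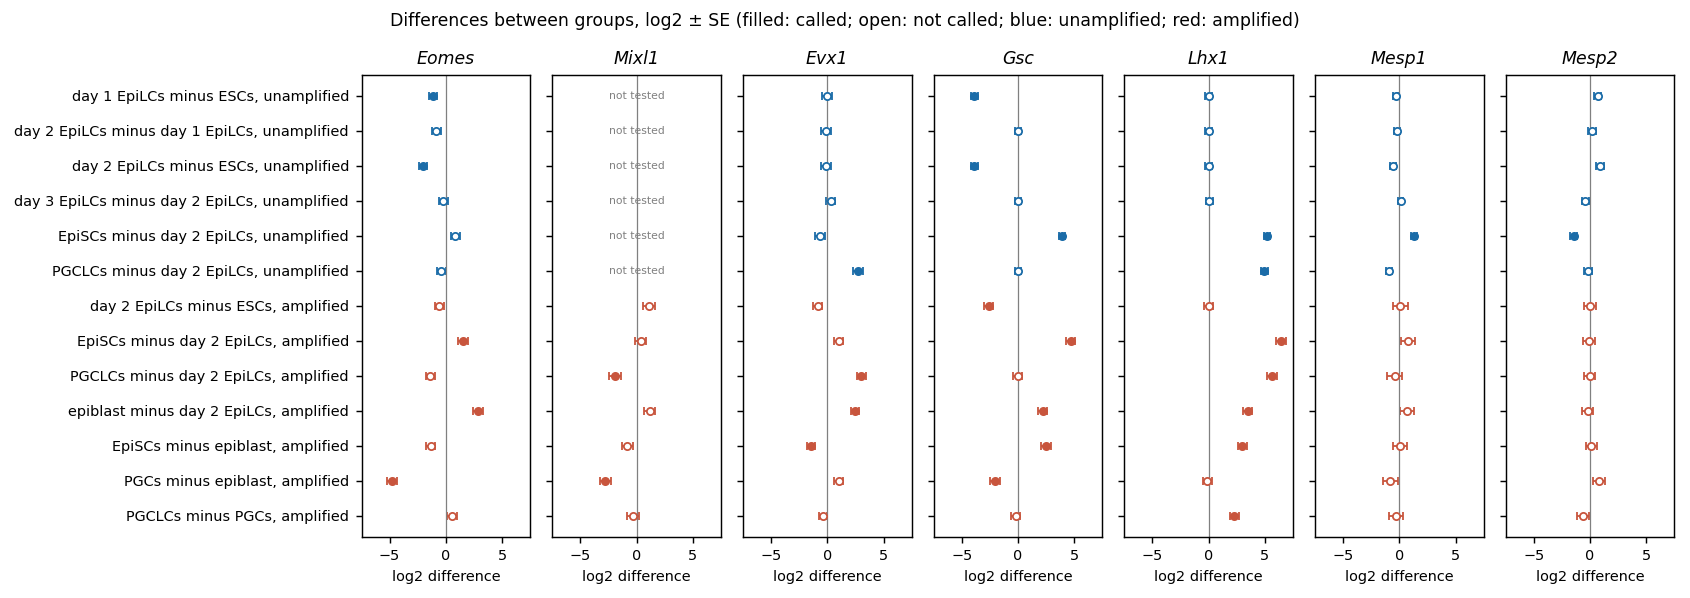
Log2 difference of each tested member (horizontal axis) in each comparison; points are estimates from limma, bars standard errors, and filled points are called. Lhx1 stands at or above 4.95 in PGCLCs and EpiSCs against day 2 EpiLCs on both array sets, sizes that depend on the floor at which day 2 EpiLCs lie, and Eomes at -4.78 in PGCs against epiblast.

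The epiblast of the embryo carried more of 4 streak factors than day 2 EpiLCs, the cultured cells compared with it. Eomes, Lhx1, Evx1 and Gsc were called higher, 4 of 7 members beside 0.961% of all 15609 tested genes. Eomes was 7.23-fold higher (2.85 ± 0.42, adjusted p = 0.0144), Evx1 at least 3.02-fold (2.44 ± 0.37, adjusted p = 0.0156) and Lhx1 at least 1.92-fold (3.46 ± 0.41, adjusted p = 0.00659). Gsc gave 2.21 ± 0.41 (adjusted p = 0.0423) with no fold, since the epiblast mean lay below the filter level. Mixl1, at 31.2 and 76.1 against 23.1 and 20.3, did not pass (1.17 ± 0.50, adjusted p = 0.46). The median log2 difference was 2.21 over members and -0.04 over all genes.

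None of these 4 calls held under every alternative. With only the 4 arrays of these groups no member was called, and 11 genes were called in all. The Eomes and Evx1 calls were lost without any 1 of the 4 arrays, Lhx1 without either epiblast array or day 2 EpiLC replicate 2 and with the 40th percentile floor (0.94), and Gsc under 12 of 23 settings. Directions held throughout, with log2 differences of 2.47 to 3.24 for Eomes and 1.59 to 2.51 for Evx1 over the settings. Sizes varied more for Lhx1 (0.94 to 3.97) and for Gsc (0.13 to 2.64). The Gsc difference was close to none, at 0.13, with the 40th percentile floor.

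Markers of visceral endoderm, the tissue that encloses the epiblast, moved with this comparison. Of 12 named markers of 13, 11 (all but Afp) exceeded the filter level on both epiblast arrays, with sums of 4550 on replicate 1 and 1440 on replicate 2, against 741 and 856 in day 2 EpiLCs. Ttr read 558 and 71.4, Apoa1 612 and 93.8, and Afp 24.4 and 15.8. Apoa1, Cubn and Dab2 were called higher, 3 of 12 beside 0.961% of all genes called. Each of the 7 members read higher on epiblast replicate 2, though the gap was small for Mesp2 (15.9 and 16.2) and Lhx1 (44.5 and 47.7). The share of all genes that read higher on that array is not given here, so this count is not a result about the members. The part of these markers in the member differences was not tested.

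Set against the epiblast, EpiSCs held more Lhx1 and Gsc and less Evx1, 3 of 7 members beside 11.7% of all genes. Lhx1 was 7.9-fold higher (2.98 ± 0.41, adjusted p = 0.00141), Gsc 5.62-fold higher (2.49 ± 0.41, adjusted p = 0.00389) and Evx1 2.71-fold lower (-1.44 ± 0.37, adjusted p = 0.0317). Eomes was at 483 and 189 against 588 and 1010 and did not pass (-1.35 ± 0.42, adjusted p = 0.0653), but with the replicate number as a block it did (adjusted p = 0.0433). The Evx1 call was lost under 8 settings: the groups alone, and without EpiSC replicate 2 (-0.79) or any 1 epiblast, ESC or PGCLC array. The Gsc call was lost without the floor (adjusted p = 0.09) and the Lhx1 call with the groups alone (adjusted p = 0.0814). Fibroblast marker sums were 3010 and 3700 in EpiSCs and 322 and 300 in the epiblast, and visceral endoderm sums 2490 and 1420 against 4550 and 1440; their part was not tested.

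The germ cell step was compared in culture, from day 2 EpiLCs to PGCLCs, and in the embryo, from epiblast to PGCs. In culture Lhx1 and Evx1 rose strongly on both array sets. Unamplified arrays gave 2 calls among 6 members beside 20.6% of all genes: Lhx1 was at least 4.62-fold higher (4.95 ± 0.29, adjusted p = 1.41e-07) and Evx1 at least 2.49-fold higher (2.70 ± 0.44, adjusted p = 0.000318). Only the 2 PGCLC arrays of that set exceeded the filter level for Evx1. It was thus tested there only through the group in which it was high, and its unamplified call is description. Amplified arrays gave 3 calls among 7 beside 12.7%: Lhx1 was at least 8.66-fold higher (5.63 ± 0.41, adjusted p = 3.76e-05), Evx1 at least 4.57-fold higher (3.04 ± 0.37, adjusted p = 0.000615), and Mixl1 lower (-1.92 ± 0.50, adjusted p = 0.0313). The 4 calls of Lhx1 and Evx1 held under every setting run for them. Since Lhx1 lay at the floor in day 2 EpiLCs, the size of its log2 difference depends on the floor: over the settings it ran from 2.21 to 5.38 on unamplified and from 3.11 to 6.15 on amplified arrays. Mixl1 lay below the filter level in both groups, so no fold is given, and its call was lost without any 1 of the 4 arrays and with the 40th percentile floor. Blood and endothelium markers (8 named of 9) moved with this step, from sums of 268 and 272 to 903 and 833 on unamplified arrays and from 261 and 242 to 1080 and 1670 on amplified arrays, with 3 and 6 of 8 above the filter level in PGCLCs. Early neural markers moved the other way, with 2 of 4 called lower on each set. The part of these markers was not tested.

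Eomes in PGCLCs did not pass on amplified arrays, at 39.7 and 41.8 against 111 and 102 (-1.39 ± 0.42, adjusted p = 0.0549). It passed with the replicate block (adjusted p = 0.0367) and with both EpiSC arrays left out of the fit (adjusted p = 0.0089), and its second probe set, fitted on its own, passed (-1.91 ± 0.48, adjusted p = 0.033). On unamplified arrays the PGCLC replicates lay apart (95.3 and 31.1), and the difference from day 2 EpiLCs was -0.40 ± 0.37 (adjusted p = 0.393). Without PGCLC replicate 1 it was -1.21 and called. Mesp1 gave -0.90 ± 0.25 on unamplified arrays (adjusted p = 0.0101), under the fold threshold.

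In the embryo Eomes, Mixl1 and Gsc fell over the step, 3 of 7 members beside 10.5% of all genes. Eomes fell by 27.4-fold from epiblast to PGCs (-4.78 ± 0.42, adjusted p = 0.000105), and this call held under all 23 settings. The size of the fall is less certain, since PGCs read 32.2 and 24.5, close to the filter level of 24. The second Eomes probe set gave -6.94 ± 0.48, with PGCs below that level at 6.04 and 8.96. Visceral endoderm markers moved with this step, with sums of 4550 and 1440 in the epiblast and 1120 and 1060 in PGCs, and 3 of 12 were called lower and none higher. Their part was not tested. Mixl1 fell by at least 2.03-fold (-2.77 ± 0.50, adjusted p = 0.00645) and Gsc gave -2.04 ± 0.41 (adjusted p = 0.0112) with no fold. The Mixl1 call was lost without epiblast replicate 2, and the Gsc call without epiblast replicate 2 or PGC replicate 2 and with the groups alone; both were lost with the 40th percentile floor. Evx1 and Lhx1, which rose in culture, did not pass in the embryo: Evx1 was at 140 and 149 against 68.8 and 76.6 (1.00 ± 0.37, adjusted p = 0.129) and Lhx1 at 47.7 and 38.2 against 44.5 and 47.7 (-0.11 ± 0.41, adjusted p = 0.937).

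The difference between these steps was tested directly, as the culture step minus the embryo step. Lhx1 (5.74 ± 0.58, adjusted p = 0.00487) and Eomes (3.39 ± 0.59, adjusted p = 0.0448) were called, 2 of 7 members beside 0.513% of all genes. Day 2 EpiLCs lay at the floor for Lhx1, so the size of its value depends on the floor, and it ran from 3.22 to 6.26 over the settings. Lhx1 rose in culture and gave a difference near 0 in the embryo, while Eomes gave -1.39 in culture, which was not called, and -4.78 in the embryo. The steps differ at their starts: day 2 EpiLCs held less of Eomes, Lhx1, Evx1 and Gsc than the epiblast. Each value equals the difference at the ends (PGCLCs minus PGCs) plus that at the starts (epiblast minus day 2 EpiLCs). For Eomes these were 0.54 ± 0.42 (not called) and 2.85 ± 0.42, and for Lhx1 2.29 ± 0.41 and 3.46 ± 0.41. Most of the Eomes value thus lay at the starts. For Lhx1 the split depends on the floor, since its value at the starts was 0.94 with the 40th percentile floor. The Lhx1 call at the ends was lost under 7 of 23 settings. The Lhx1 result held under all 23 settings, and the Eomes result was lost without the filter and without any 1 array of ESCs, day 2 EpiLCs, epiblast, PGCLCs or PGCs (adjusted p up to 0.193). The Lhx1 result rests on its brighter probe set, since the second exceeded the filter level on 0 amplified arrays. The second Eomes probe set, fitted on its own, passed (5.03 ± 0.68, adjusted p = 0.0351). Evx1 (2.04 ± 0.52, adjusted p = 0.164) and Gsc (2.00 ± 0.58, adjusted p = 0.232) did not pass. The Evx1 difference passed, at the same size, under 4 settings: with the groups alone (adjusted p = 0.0468), without EpiSC replicate 1 (0.0226) or replicate 2 (0.0205), and with both EpiSC arrays left out (0.0205).

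**Figure D4:**
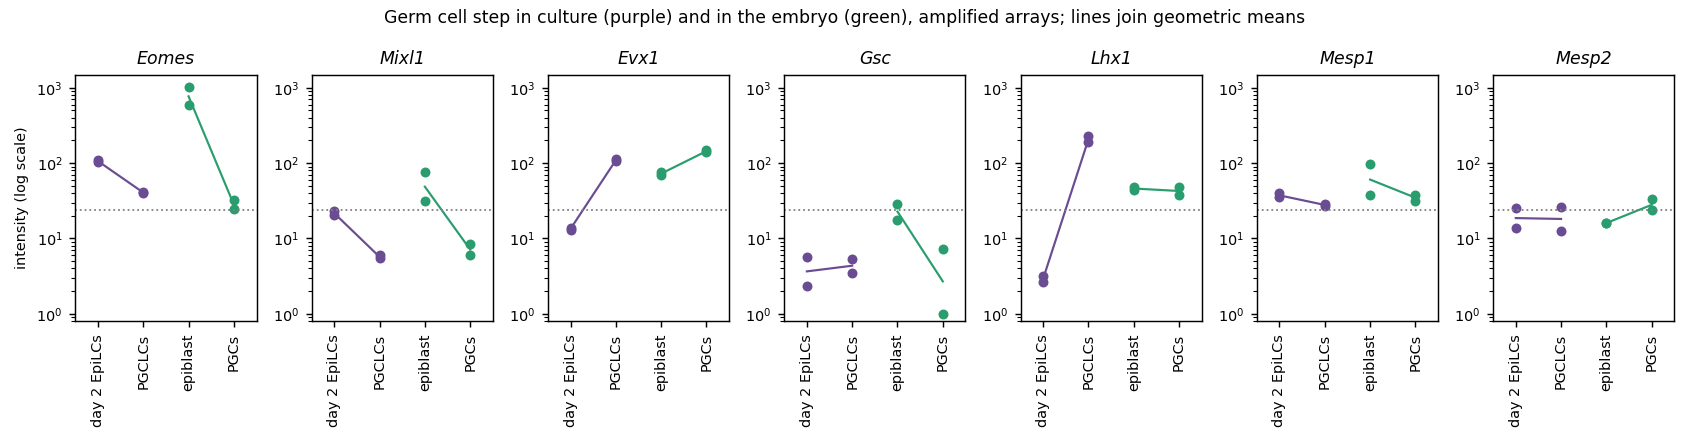
Intensity (log scale) of each member on amplified arrays before and after the germ cell step, in culture (purple, day 2 EpiLCs to PGCLCs) and in the embryo (green, epiblast to PGCs); points are arrays, lines join the geometric means of 2 arrays and the dotted line is the filter level of 24. Lhx1 climbs in culture, at least 8.66-fold from values at the floor, and gives a log2 difference of -0.11 in the embryo, and Eomes falls further in the embryo (-4.78) than in culture (-1.39).

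At the end points PGCLCs and PGCs differed in 1 of 7 members, beside 2.88% of all genes. Lhx1 was 4.88-fold higher in PGCLCs, at 229 and 189 against 47.7 and 38.2 (2.29 ± 0.41, adjusted p = 0.0193). The call was lost without any 1 of the 4 arrays, with the groups alone, without the floor and with probe sets averaged (adjusted p up to 0.167). Blood and endothelium markers summed to 11300 and 4660 in PGCs (5 of 8 above the filter level), 194 and 186 in the epiblast and 1080 and 1670 in PGCLCs, and fibroblast markers to 1760 and 759 against 298 and 434. Their part in the differences between PGCs and the other groups was not tested.

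Ordered by mean level, the groups separated clearly for only some members. Lhx1 on amplified arrays ran EpiSCs, PGCLCs, epiblast and PGCs, with day 2 EpiLCs and ESCs tied below them at the floor. Its called steps between neighbours were PGCLCs over epiblast (2.18 ± 0.41, adjusted p = 0.0061, beside 13.6% of all genes) and PGCs over day 2 EpiLCs (3.35 ± 0.41, adjusted p = 0.000705, beside 12.2%). On unamplified arrays EpiSCs and PGCLCs did not differ beyond their spread, and PGCLCs stood over day 3 EpiLCs (4.88 ± 0.29, adjusted p = 1.31e-07, beside 23.3%). Evx1 showed the same called step of PGCLCs over day 3 EpiLCs (2.41 ± 0.44, adjusted p = 0.000648), though it was tested on unamplified arrays only through its PGCLC readings. On amplified arrays the called step of Evx1 lay between epiblast and EpiSCs. Gsc stepped from EpiSCs to ESCs on amplified arrays (2.11 ± 0.41, adjusted p = 0.00598, beside 16.4% of all genes), and again from epiblast to PGCs. Eomes had 1 called step, ESCs over day 1 EpiLCs, while its amplified order of epiblast, EpiSCs, ESCs, day 2 EpiLCs, PGCLCs and PGCs had none between neighbours. Mixl1, Mesp1 and Mesp2 had none.

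The signals that act above these factors were followed through 19 genes of the Nodal, WNT, BMP and FGF pathways, 18 of them named on the array and 17 tested on each set. Bmp4, which drives both streak and germ cell formation, rose in EpiSCs over day 2 EpiLCs (3.47 ± 0.35 unamplified, 2.17 ± 0.29 amplified), in PGCLCs (2.39 ± 0.35 and 3.28 ± 0.29) and in the epiblast (2.42 ± 0.29). In EpiSCs 3 of 17 rose and 2 fell on each set, beside 18.9% of all genes called on unamplified and 12.5% on amplified arrays; Fgf8, an FGF of the streak, rose by at least 22.8-fold on unamplified arrays (6.37 ± 0.39), and Fgf4 (-4.00 ± 0.33) and Gdf3 (-3.14 ± 0.07) fell. In PGCLCs 2 of 17 rose, Bmp4 and the Nodal receptor gene Acvr1b (1.43 ± 0.16), and 1 fell, Fgf4 (-5.36 ± 0.33), on unamplified arrays, a share no higher than the 20.6% of all genes called there. On amplified arrays 1 rose and 1 fell, beside 12.7%. In the epiblast Bmp4 was the 1 call, beside 0.961%. From epiblast to PGCs 1 rose and 3 fell, beside 10.5%, among them the Nodal co-receptor gene Tdgf1 (-5.11 ± 0.60). Wnt3, the WNT ligand of the posterior epiblast, read at most 23.3 on any array. The medians over this list were 0.43 in EpiSCs and -0.33 in PGCLCs on unamplified arrays, and 0.02 and -0.09 over all genes.

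Several antagonists of Nodal and WNT, themselves targets of those signals, differed between EpiSCs and day 2 EpiLCs. Of 10 genes, 7 rose and 1 fell in EpiSCs on unamplified arrays, beside 18.9% of all genes called, and 5 rose and the other 5 did not pass on amplified arrays, beside 12.5%. Cer1 was at least 17.6-fold higher (6.88 ± 0.31), Dkk1 at least 12.1-fold (4.06 ± 0.24), and Lefty2 5.99-fold (2.58 ± 0.11), while Smad7 fell (-1.18 ± 0.11), all on unamplified arrays. In day 2 EpiLCs against ESCs 1 rose, Lefty1 (3.30 ± 0.07), and 5 fell, with Sfrp1 (-3.09 ± 0.10) and Axin2 (-2.76 ± 0.15) the furthest, beside 16.5% of all genes. In PGCLCs 3 rose and 2 fell on unamplified arrays, beside 20.6%, and 2 rose and 2 fell on amplified arrays, beside 12.7%. The epiblast held less Lefty1 (-5.59 ± 0.47) and Lefty2 (-2.36 ± 0.36) than day 2 EpiLCs, 2 of 10 beside 0.961%. The median over the antagonists in that comparison was 0.28, and -0.04 over all genes. A link between antagonists and streak factors was not tested. The median over the antagonists was 1.60 in EpiSCs on unamplified arrays and 0.02 over all genes.

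Of 25 other streak and mesoderm genes, 23 were named; T (brachyury) was not among them and was not analysed here. In EpiSCs 10 of 22 rose and none fell against day 2 EpiLCs on unamplified arrays, beside 18.9% of all genes called, and 7 of 23 rose on amplified arrays, beside 12.5%. Aplnr (8.14 ± 0.35), an apelin receptor of early mesoderm, and Cyp26a1 (7.39 ± 0.44), which degrades retinoic acid, were the highest on unamplified arrays. In PGCLCs 7 rose and 3 fell on unamplified arrays, beside 20.6%, and 5 rose and 2 fell on amplified arrays, beside 12.7%. On unamplified arrays Cdx2 (6.51 ± 0.60) and Gata2 (5.43 ± 0.33) led the rises and Apela (-5.58 ± 0.35) the falls. The epiblast differed from day 2 EpiLCs in 1 of 23, Cyp26a1 (6.15 ± 0.59), beside 0.961%. From epiblast to PGCs 7 rose, led by Gata2 (4.11 ± 0.43), and 2 fell, beside 10.5%. Among 16 anterior streak, node and endoderm genes, 8 of 13 tested rose and 1 fell in unamplified EpiSCs, with Foxa1 (7.41 ± 0.33) and Foxa2 (6.69 ± 0.62) highest, and 6 of 12 rose on amplified arrays, beside 18.9% and 12.5% of all genes. In PGCLCs 2 of 13 rose and 1 fell, Otx2 (-5.79 ± 0.40), on unamplified arrays, close to the 20.6% of all genes. On amplified arrays none of 12 rose and 2 fell, Otx2 (-6.36 ± 0.81) and Trh (-2.03 ± 0.47), beside 12.7%.

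Comparisons with day 2 EpiLCs share those arrays, and so do comparisons with the epiblast, so each is given by its own values and no overlap is drawn between them. Across the 12 group means, centred within each array set, Gsc and Mesp1 correlated at 0.76 and Eomes and Gsc at 0.69. Mesp2 ran opposite to Gsc and to Mesp1 (-0.73 each), and Eomes and Lhx1 were near 0 (-0.07). These values are descriptions over 12 points that share arrays. Mesp2 exceeded the filter level on only 3 of 12 unamplified and 4 of 12 amplified arrays, so its r values rest mostly on readings below that level. Of 14554 genes tested on both sets, those most like Lhx1 were Stx17 (r 0.96) and Itsn1 (0.95), and most like Eomes Zfp106 (0.91) and Pi4kb (0.91). Evx1 was most like Trmt11 (0.95) and Alg13 (0.93), Gsc most like Ang (0.94) and Rnase4 (0.94). Mesp1 was most like Zdhhc7 (0.96) and Arf3 (0.95), and Mesp2 most like Lipe (0.90) and Fpr-rs4 (0.88).

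The genes beside the members on the chromosome were looked up as well. In GRCm38.p6 Mesp1 (chr7:79792241-79793590) and Mesp2 (chr7:79810727-79813431) lie 17136 bases apart, and Evx1 (chr6:52313498-52318389) lies 52617 bases from Hoxa13, the end of the Hoxa cluster. Eomes spans chr9:118478186-118486132, Lhx1 chr11:84517975-84525534, Gsc chr12:104471209-104473236 and Mixl1 chr1:180693043-180697034. The 10 other neighbouring genes that were tested gave 4 calls in 126 results over the 14 comparisons, the members 30 in 92, and all tested genes 21389 in 214482, or 9.97%; by comparison the share of all genes ran from 0.513% to 20.6%. The 4 were Anpep beside Mesp2, higher in day 2 EpiLCs than ESCs but below the filter level in both, Serpina3n beside Gsc, lower in EpiSCs than day 2 EpiLCs on unamplified arrays (-2.47), Acbd3 beside Mixl1, higher in that comparison on amplified arrays (1.23), and Dicer1 beside Gsc, higher in PGCs than epiblast (1.04).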

How the data were processed

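RNA abundance was measured on Affymetrix arrays, 24 in all. Per the labels' protocols total RNA was extracted, amplified by PCR for 12 arrays, and labelled with biotin. The authors deposited 1 intensity per probe set and array; the sources used here do not state how these intensity values were computed or normalized, and no scaling was added. A single symbol was listed for 34958 probe sets, several for 932 and none for 9211. Where a gene had several probe sets, the brightest by mean log2 over the 24 arrays stood for it. A floor of 4.2 (10th percentile) was set, log2 was taken, and limma 3.58.1 in R 4.3.3 fitted 1 mean per group over the 12 arrays of a set, with variances moderated along intensity (6 residual degrees of freedom). P-values are two-sided. Errors are standard errors with n = 2 arrays per group. The procedure was tested on simulated data.

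Amplified and unamplified arrays were kept apart. On amplified arrays same-numbered residuals correlated above 0.1 in 15 of 15 pairs of groups (median 0.37), so same-numbered arrays shared variation there. The main values come from a fit without a replicate block, which ignores this pairing. A fit with the block was run as an alternative. On unamplified arrays the correlation exceeded 0.1 in 3 of 15 pairs. Members and gene lists were chosen with earlier results of these data known. All members were described. Of list genes, those called with the largest differences are named, up to 4 each way. Like patterns are the 2 genes with the highest r. Alternatives changed the floor, filter, scaling, probe set rule, trend, block, groups fitted and arrays. The fit without both EpiSC arrays was chosen after seeing the data.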

Additional observations from a re-analysis of the deposited data

Results flagged for a closer look

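The germ cell step differed between culture and embryo for 2 members by a direct test of the difference on amplified arrays. For Lhx1 the culture step (PGCLCs minus day 2 EpiLCs) exceeded the embryo step (PGCs minus epiblast) by 5.74 on the log2 scale, a size that depends on the floor at which day 2 EpiLCs lie (3.22 to 6.26 over the alternatives), and for Eomes by 3.39. All 4 arrays of each step took part, and the Lhx1 difference kept its call under all 23 alternatives, while that of Eomes kept it under 12. The second Lhx1 probe set exceeded the filter level on 0 amplified arrays, so the Lhx1 result rests on the brighter probe set. The second Eomes probe set, fitted on its own, was called (5.03 ± 0.68, limma adjusted p = 0.0351). Each value is also the difference at the ends (PGCLCs minus PGCs) plus that at the starts (epiblast minus day 2 EpiLCs). For Eomes these were 0.54, which was not called, and 2.85. For Lhx1 they were 2.29 and 3.46. The Lhx1 value at the starts depends on the floor and was 0.94 with the 40th percentile floor. The Lhx1 call at the ends was lost under 7 of 23 alternatives.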

How the results depend on the processing

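The 92 member differences were refitted under up to 24 alternatives each; no called difference changed sign, and 14 of 30 calls held under every alternative. With the filter at the 60th percentile, which leaves dim members untested, 1 member was called in each of 4 unamplified comparisons: day 1 EpiLCs against ESCs (2 as reported), day 2 EpiLCs against ESCs (2), EpiSCs against day 2 EpiLCs (4) and PGCLCs against day 2 EpiLCs (2). For day 1 EpiLCs against ESCs the count was also 1 without the filter and without the trend. With a floor at the 40th percentile it was 0 in place of 1 for day 2 EpiLCs against ESCs (amplified), 2 in place of 4 for epiblast against day 2 EpiLCs, and 1 in place of 3 for PGCs against epiblast. Without a floor it was 0 for day 2 EpiLCs against ESCs (amplified) and 0 for PGCLCs against PGCs, which also gave 0 with probe sets averaged and with the groups alone. With the groups alone it was 0 for epiblast against day 2 EpiLCs and 1 for EpiSCs against epiblast. Without the filter the step in culture minus in the embryo gave 1 in place of 2. The causes were not tested.

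Leaving out 1 array gave, on unamplified arrays, 1 to 2 members for day 1 EpiLCs against ESCs, 2 to 3 for day 2 EpiLCs against ESCs, 0 to 0 for day 2 against day 1 and day 3 against day 2 EpiLCs, and against day 2 EpiLCs 4 to 5 for EpiSCs and 2 to 3 for PGCLCs. On amplified arrays it gave 1 to 1 for day 2 EpiLCs against ESCs, 2 to 4 for EpiSCs, 2 to 4 for PGCLCs and 0 to 4 for epiblast against day 2 EpiLCs, 2 to 4 for EpiSCs and 1 to 3 for PGCs against epiblast, 0 to 1 for PGCLCs against PGCs, and 1 to 3 for the step. With the replicate block, PGCLCs against day 2 EpiLCs and EpiSCs against epiblast gave 4 members on amplified arrays (3 without it), each by adding Eomes; the block changed no other member call there. With both EpiSC arrays left out, PGCLCs against day 2 EpiLCs also gained Eomes (4) and the step gained Evx1 (3). On unamplified arrays, where numbers did not pair, the block left each count as it was. A code in the names of unamplified arrays was EA0796 for replicate 1 of ESCs and EpiLCs and EA0830 for replicate 1 of EpiSCs and PGCLCs. Comparisons of EpiSCs or PGCLCs with EpiLCs there thus overlap in part with the code. With the code as a block no member call was gained or lost on these arrays. On amplified arrays the code followed the replicate number. Counts over all genes moved by over 1.5 times in all 8 amplified comparisons, between 11 (groups alone) and 309 (block) for epiblast against day 2 EpiLCs (150 as reported) and between 12 and 257 for the step (80). The lowest and highest were 659 and 1877 for day 2 EpiLCs against ESCs (1329), 464 and 3956 for EpiSCs (1947) and 1009 and 2645 for PGCLCs (1983) against day 2 EpiLCs, 459 and 3442 for EpiSCs (1823) and 793 and 2187 for PGCs (1634) against epiblast, and 0 (groups alone) and 773 for PGCLCs against PGCs (450). Quantile normalization moved the all-gene median of EpiSCs against day 2 EpiLCs from 0.02 to -0.11 on unamplified arrays. Low signal limits several members: of 12 unamplified arrays Mixl1 exceeded the filter level on 1, Evx1 on 2, Mesp2 on 3, and Gsc and Lhx1 on 4, and of 12 amplified arrays Mixl1 on 3, Mesp2 on 4 and Gsc on 5.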
